A study of Homo sapiens with 16 samples.

Results

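The 32 genes described here carry glucose into the cell, break it down to pyruvate, pass lactate across the plasma membrane and control the entry of pyruvate into the mitochondrion. The list is defined by gene symbol and its rule uses no measured value, but it was drawn up with earlier results of these data known. All 32 were found among the 34228 genes of the count table. RNA-Seq was available as estimated counts for 8 libraries of 2 human melanoma cell lines with acquired resistance to BRAF inhibition (BRAFi-R), 451Lu-R and 1205Lu-R. Each line was treated for 24 hours with 2.5 μM corin, a dual inhibitor of the histone deacetylase and demethylase activities of the CoREST repressor complex, or with DMSO as the control, with 2 libraries per group. Resistance to PLX4032 (vemurafenib) is therefore shared by all 4 groups, none of which is labelled as treated with it, and the libraries that also received PLX4032 were not analysed here. The authors kept their resistant lines in PLX4032 to maintain resistance. Whether it was withdrawn before the 24 hours with DMSO or corin is not given in the sources used here. Each cell line is a single line, and the labels do not say whether the 2 libraries of a group came from separate cultures, so the p-values measure the spread between these libraries, which may be technical.

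Glycolysis converts glucose to pyruvate in the cytosol, and most of its steps are served by several related genes (paralogs) whose enzymes differ in affinity, regulation and tissue. Pyruvate is either reduced to lactate and exported or oxidised by the pyruvate dehydrogenase complex, which pyruvate dehydrogenase kinases switch off by phosphorylation. Many of these genes are known targets of the hypoxia-inducible factors, and tumor cells commonly run the pathway at a high rate even with oxygen present.

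Totals ran from 9516687 to 11797788 estimated counts per library. Most melanocytic markers were high in 451Lu-R (*PMEL* at 8046 and 8022 CPM with DMSO), but *TYRP1* was at only 4.555 and 4.815 CPM with DMSO. In 1205Lu-R they were absent or low. There, *SOX10* and *TYR* were at 0 in all 4 libraries, *PMEL* reached at most 1.64 CPM and *PAX3* was at 25.74 and 25.95 CPM with DMSO. Of the markers of dedifferentiated melanoma in 1205Lu-R with DMSO, the receptor kinase gene *AXL* stood at 985.1 and 1012 CPM. *EGFR* was at 101.9 and 97.85 CPM and *NGFR* at only 5.825 and 6.341 CPM. Here CPM means counts scaled to a total of 1000000 after TMM scaling, a correction for library composition. Of the markers of other cell types, *PTPRC*, *EPCAM* and *CDH5* stayed at or below 0.621 CPM in all 8 libraries, and the endothelial marker *PECAM1* was at 9.44 and 10.2 CPM in 1205Lu-R with DMSO. The share of counts on mitochondrially encoded genes moved with treatment, from between 2.98% and 3.07% with DMSO to between 5.86% and 5.90% with corin in 451Lu-R, and from 0.377% to between 0.705% and 0.707% in 1205Lu-R. Its part in the results below was not tested.

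In 451Lu-R, corin raised more genes of the pathway than it lowered, while in 1205Lu-R the numbers were nearly equal. Of the 32 genes tested in 451Lu-R, 20 rose, 8 fell and 4 did not pass an adjusted p of 0.05 (edgeR's quasi-likelihood test, Benjamini-Hochberg adjustment over all genes tested), against 41.3% of all genes rising and 38.6% falling. At least 2-fold, 9 rose and 0 fell, against 22.2% and 13.3% of all genes. Of the 30 genes tested in 1205Lu-R, 12 rose, 13 fell and 5 did not pass, against 40.4% and 37.8% of all genes, and 5 rose and 2 fell at least 2-fold, against 22.0% and 9.80%. The median log2 fold change of the pathway genes was 0.36 in 451Lu-R and -0.01 in 1205Lu-R, beside 0.03 over all genes tested in each line. Corin thus changed most genes of the transcriptome at this threshold, and the number of pathway genes that passed was close to that background. With scaling by library size alone, the median of all genes moved by -0.10 for 451Lu-R and 0.07 for 1205Lu-R.

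**Figure D1:**
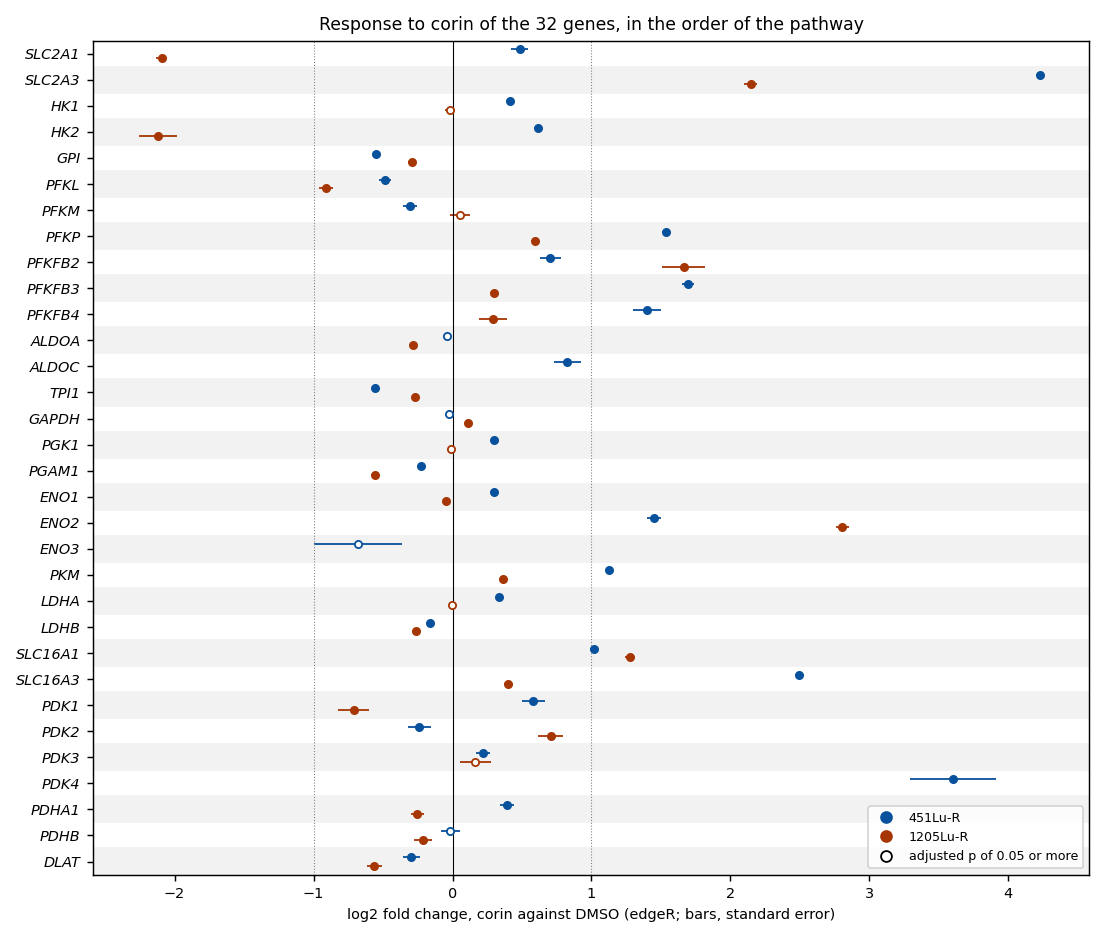
Log2 fold change with corin against DMSO (horizontal axis) of each gene, from the transporters at the top to the pyruvate dehydrogenase complex at the bottom, in 451Lu-R (blue) and 1205Lu-R (brown); bars are standard errors, filled points passed an adjusted p of 0.05 and dotted lines mark 2-fold. *SLC2A1* and *HK2* lie right of 0 in 451Lu-R and near -2.1 in 1205Lu-R. *PDK4* in 1205Lu-R (0 counts with DMSO) and *ALDOC* and *ENO3* in 1205Lu-R (not tested) are not drawn.

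The responses differed between the lines for 29 of the 32 genes (edgeR's quasi-likelihood test of the interaction, adjusted p under 0.05), against 49.7% of all genes. For 10 genes the difference was at least 1 on the log2 scale, against 18.8% of all genes. Of the 29, 9 responded more positively and 20 more negatively in 1205Lu-R, and the median difference (1205Lu-R minus 451Lu-R) was -0.36 over the 32 genes beside -0.01 over all genes. Over all genes called, 45.4% were more positive in 1205Lu-R, and 64.0% with scaling by library size alone, which moved the median of all genes by 0.21. Sorted by direction, 10 genes rose in both lines (*SLC2A3*, *PFKP*, *PFKFB2*, *PFKFB3*, *PFKFB4*, *ENO2*, *PKM*, *SLC16A1*, *SLC16A3* and *PDK4*) and 6 fell in both (*GPI*, *PFKL*, *TPI1*, *PGAM1*, *LDHB* and *DLAT*). In 5 more, a rise in 451Lu-R stood against a fall in 1205Lu-R (*SLC2A1*, *HK2*, *ENO1*, *PDK1* and *PDHA1*), and *PDK2* did the reverse. Over the 13200 genes tested in both lines, the shares in these 4 classes were 28.8%, 28.5%, 5.96% and 4.13%, beside 10, 6, 5 and 1 of the 30 pathway genes. The fall of *ENO1* in 1205Lu-R was small (log2 fold change -0.05) and turned positive with scaling by library size alone.

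**Figure D2:**
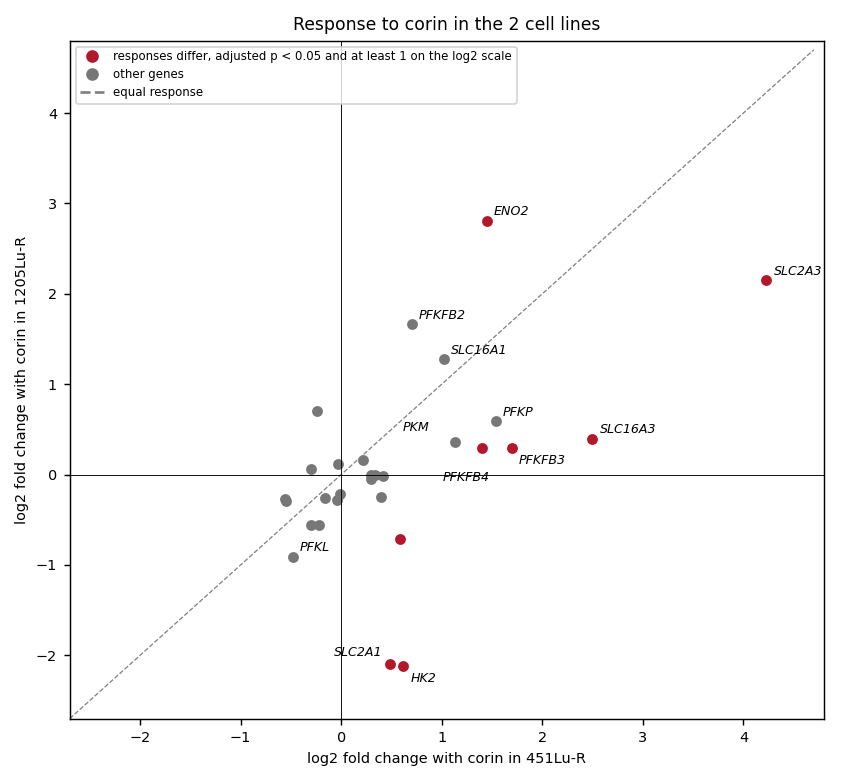
Log2 fold change with corin in 451Lu-R (horizontal axis) against that in 1205Lu-R (vertical axis), 1 point per gene; red points differ between the lines by at least 1 on the log2 scale at an adjusted p under 0.05, and the dashed line marks an equal response. *ENO2* lies above the line, *SLC2A3* and *SLC16A3* below it, and *SLC2A1* and *HK2* in the lower right quadrant; *PDK4*, *ALDOC* and *ENO3* are not drawn.

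Promoter sequence is shown for 2 of the 6 genes that moved in opposite directions (*SLC2A1*, *HK2*) and for 2 of those that rose in both lines (*ENO2*, *PDK4*). Each is the 250 bases before a RefSeq transcription start (GRCh38.p14), 5′ to 3′ on the strand of the gene, with the letters ACGTG or GCGTG, the core of a hypoxia response element, in capitals on either strand (CACGT and CACGC on the other). A match to ACGTG can overlap the E-box CACGTG. The windows lie at chr1:42958869-42959118 (minus strand, *SLC2A1*), chr2:74833877-74834126 (plus, *HK2*), chr12:6914330-6914579 (plus, *ENO2*) and chr7:95596517-95596766 (minus, *PDK4*).
SLC2A1: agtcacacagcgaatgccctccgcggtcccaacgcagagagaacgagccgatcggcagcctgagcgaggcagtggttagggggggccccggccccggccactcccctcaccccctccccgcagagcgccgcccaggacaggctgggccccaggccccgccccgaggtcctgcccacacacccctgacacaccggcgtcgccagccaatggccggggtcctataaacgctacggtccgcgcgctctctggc
HK2: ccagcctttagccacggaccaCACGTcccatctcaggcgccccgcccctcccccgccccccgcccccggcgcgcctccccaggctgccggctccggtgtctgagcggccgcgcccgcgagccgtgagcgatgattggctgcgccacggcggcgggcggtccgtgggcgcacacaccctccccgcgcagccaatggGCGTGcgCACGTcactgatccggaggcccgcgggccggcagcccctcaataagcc
ENO2: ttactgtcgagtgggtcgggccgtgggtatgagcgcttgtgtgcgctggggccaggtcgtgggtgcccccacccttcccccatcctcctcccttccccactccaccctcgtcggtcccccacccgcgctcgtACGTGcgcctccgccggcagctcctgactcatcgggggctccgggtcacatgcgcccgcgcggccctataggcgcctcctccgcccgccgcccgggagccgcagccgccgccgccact
PDK4: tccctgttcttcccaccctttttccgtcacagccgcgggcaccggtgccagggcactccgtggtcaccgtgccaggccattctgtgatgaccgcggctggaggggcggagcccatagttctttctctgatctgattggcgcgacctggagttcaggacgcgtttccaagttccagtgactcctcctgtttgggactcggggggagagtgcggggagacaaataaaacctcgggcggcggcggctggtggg
*HK2* has a pair of windows in the table, and the one shown held 3 cores and the other 6 cores and an E-box. The *ENO2* window held 1 core, and the *SLC2A1* and *PDK4* windows 0. Of the 32 genes, 29 had a window in the table (not *SLC2A3*, *SLC16A1* or *PFKFB2*), and 32 of their 58 windows (55.2%) held a core, beside 43.2% of all 35116 windows. The E-box was in 13.8% of their windows and in 6.34% of all. Their windows were also richer in CpG, with a median of 20.5 CpG and 67.8% GC beside 11 and 58.0% for all windows. These letters are a description, and whether a factor binds there was not tested.

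Glucose uptake showed the largest exchange between paralogs. *SLC2A3* (GLUT3, a high-affinity glucose transporter best known from neurons) was at 67.0 and 71.2 CPM in 451Lu-R with DMSO and at 1330 and 1297 CPM with corin. In 1205Lu-R it was at 37.1 and 37.9 CPM with DMSO and at 167 and 163 CPM with corin. The groups did not overlap in either line, and the rise was 18.7-fold in 451Lu-R (log2 fold change 4.23 ± 0.03 SE, adjusted p = 1.63e-25) and 4.43-fold in 1205Lu-R (2.15 ± 0.05, adjusted p = 2.99e-20, edgeR's quasi-likelihood test). *SLC2A1* (GLUT1, the widely expressed basal transporter) was at 54.2 and 60.5 CPM with DMSO and 79.9 and 82.8 CPM with corin in 451Lu-R. Its 1205Lu-R values were 333.5 and 342 CPM with DMSO and 79.8 and 77.0 CPM with corin. From baselines that differed 5.83-fold, *SLC2A1* thus stood between 77.0 and 82.8 CPM in all 4 corin libraries, after a 1.40-fold rise in 451Lu-R and a 4.27-fold fall in 1205Lu-R (adjusted p = 3.93e-07 and 1.16e-21, edgeR).

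Set against the sum of both transporters, with levels divided by the length of the canonical transcript, *SLC2A3* went from 51.6% ± 0.876 to 93.4% ± 0.268 in 451Lu-R and from 8.93% ± 0.0321 to 65.0% ± 0.178 in 1205Lu-R (mean ± SD, n = 2). The ratio of *SLC2A3* to *SLC2A1* gained 3.74 (451Lu-R) and 4.24 (1205Lu-R) on the log2 scale. An exact permutation test of 2 against 2 libraries cannot give a p below 0.333, the value found for both ratios, so shares and ratios are given as descriptions throughout. Of the 31-base words of the *SLC2A3* transcript, 43.0% also occur in other genes, 38.2% in *SLC2A14*. The copies of *SLC2A3* received at most 0.205% of the counts in any library.

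**Figure D3:**
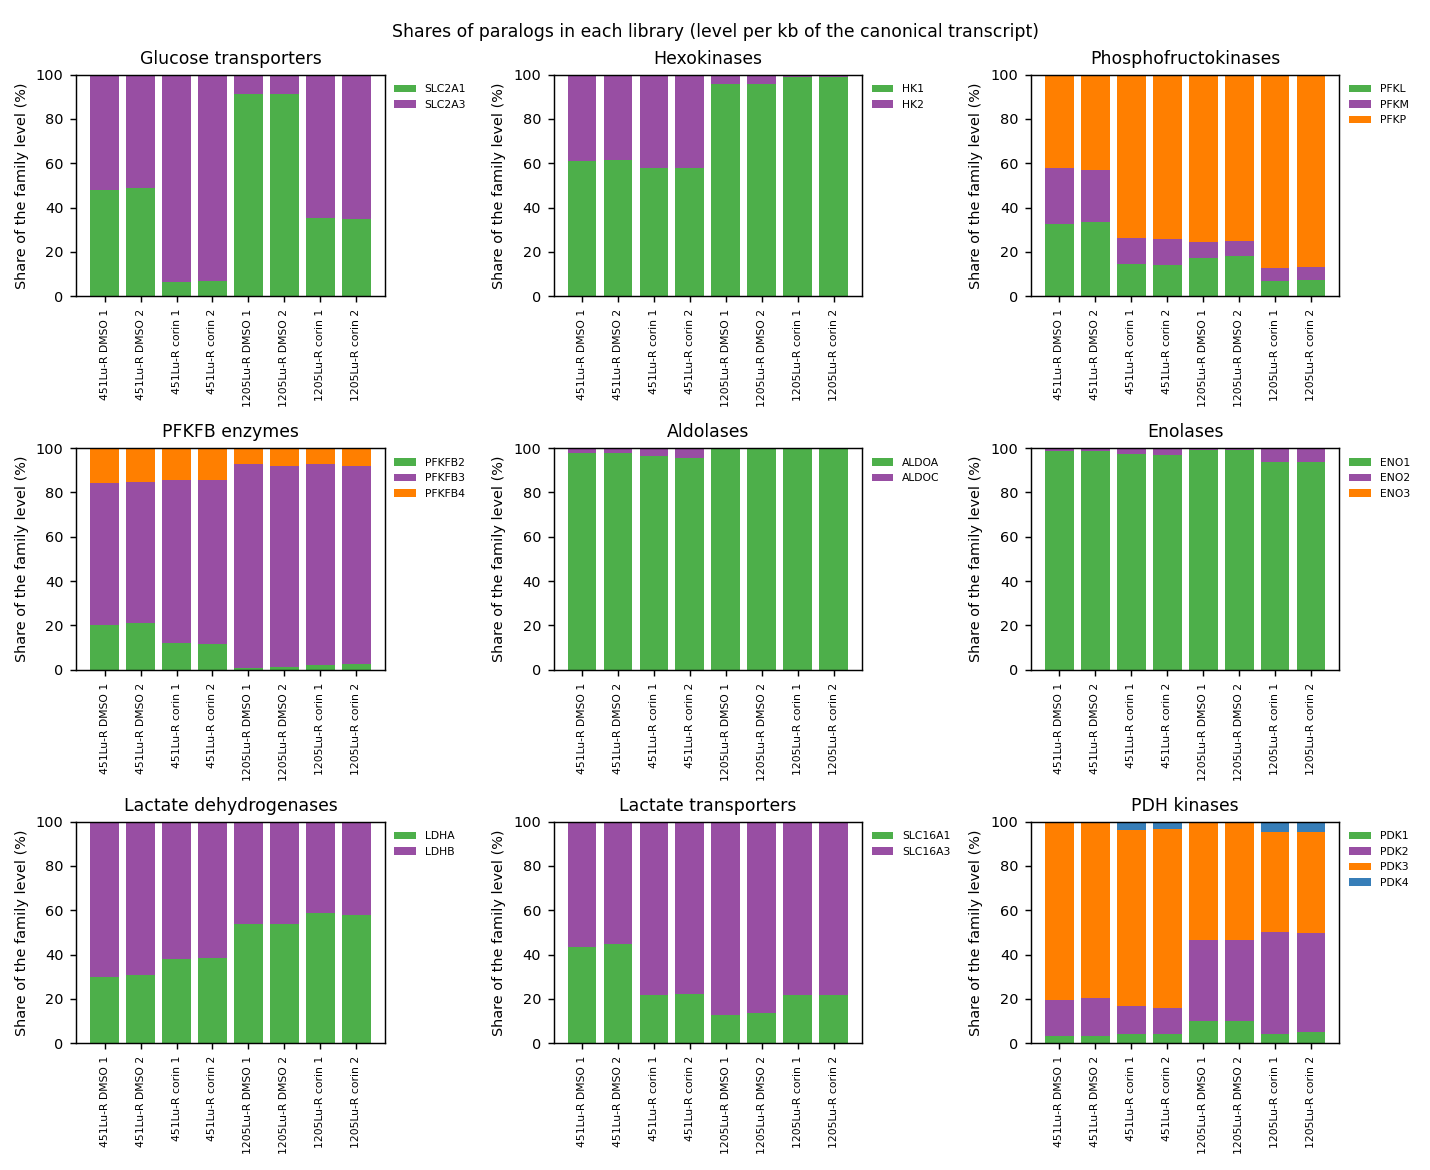
Share of each paralog in the summed level of its family (vertical axis, percent, level per kb of the canonical transcript) in each of the 8 libraries, for 9 families. The *SLC2A3* share (purple, transporter panel) is above 93% in both 451Lu-R corin libraries and near 65% in both 1205Lu-R corin libraries, and *PFKP* (orange, phosphofructokinase panel) gains in both lines.

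The hexokinase genes responded differently in the 2 lines. *HK2* (the inducible hexokinase of many tumors, which phosphorylates glucose at the mitochondrial surface) was at 216.5 and 210 CPM with DMSO and 334 and 331 CPM with corin in 451Lu-R. Its 1205Lu-R values were 20.5 and 21.7 CPM with DMSO and 5.13 and 4.57 CPM with corin, from 49 and 52 counts. It rose 1.53-fold in the first and fell 4.35-fold in the second (adjusted p = 6.81e-14 and 5.48e-12, edgeR), a difference in response of -2.78 ± 0.13 (SE) on the log2 scale. *HK1*, the housekeeping hexokinase, rose from 215 and 216 to 295 and 289.5 CPM in 451Lu-R, and in 1205Lu-R its groups overlapped (286 and 299 against 284.5 and 287 CPM, adjusted p = 0.619). The *HK2* share of the pair was 38.8% with DMSO and 42.1% with corin in 451Lu-R. The shares of 1205Lu-R were 4.40% and 1.06%. With levels divided by the union of all annotated exons, they became 53.5% and 56.9% (451Lu-R) and 7.72% and 1.91% (1205Lu-R). *GPI*, which isomerises glucose 6-phosphate, fell in both lines, by 0.55 and 0.29 on the log2 scale.

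Phosphofructokinase moved toward the platelet-type enzyme in both lines. *PFKP* was at 144 and 147 CPM with DMSO and 423.5 and 434 CPM with corin in 451Lu-R, and at 380.3 and 374 against 571 and 555 CPM in 1205Lu-R. *PFKL*, the liver-type enzyme, was at 124 and 128 against 92.5 and 90.03 CPM in 451Lu-R, and at 96.8 and 100.3 against 50.9 and 52.8 CPM in 1205Lu-R. None of these groups overlapped. *PFKP* rose 2.90-fold and 1.51-fold and *PFKL* fell 1.40-fold and 1.88-fold (adjusted p from 9.96e-20 to 2.63e-09, edgeR). *PFKM*, the muscle-type enzyme, fell in 451Lu-R by 0.30 on the log2 scale, and in 1205Lu-R its groups overlapped (43.6 and 38.7 against 43.7 and 41.2 CPM, adjusted p = 0.488). The *PFKP* share of the 3 genes rose from 42.5% to 73.9% in 451Lu-R and from 75.3% to 87.2% in 1205Lu-R. *SENP1* overlaps *PFKM* on the other strand and had up to 49.6% as many counts in a library.

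The *PFKFB* genes encode the enzymes that make and degrade fructose 2,6-bisphosphate, the strongest activator of phosphofructokinase, and all 3 rose in both lines. *PFKFB3*, whose product strongly favors synthesis, was at 56.0 and 53.3 against 183 and 176 CPM in 451Lu-R and at 286.5 and 279 against 345 and 343 CPM in 1205Lu-R, a 3.24-fold and a 1.23-fold rise. *PFKFB4* was at 10.7 and 10.2 against 28.7 and 27.4 CPM in 451Lu-R and at 18.1 and 19.0 against 20.9 and 23.7 CPM in 1205Lu-R (2.64-fold and 1.22-fold, adjusted p = 1.34e-10 and 0.0132, edgeR). *PFKFB2*, the heart-type enzyme, was at 28.0 and 28.1 against 48.2 and 44.4 CPM in 451Lu-R and at 4.13 and 5.07 against 13.9 and 14.9 CPM in 1205Lu-R (1.63-fold and 3.17-fold). *PFKFB3* and *PFKFB4* thus rose more in 451Lu-R and *PFKFB2* more in 1205Lu-R, with differences of -1.43, -1.15 and 0.92 on the log2 scale (adjusted p from 7.61e-15 to 7.77e-05, edgeR interaction). *PFKFB4* overlaps *UCN2* on the same strand and *PFKFB2* overlaps *YOD1* on the other, and the strand setting of the quantification is not given in the sources used here.

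**Figure D4:**
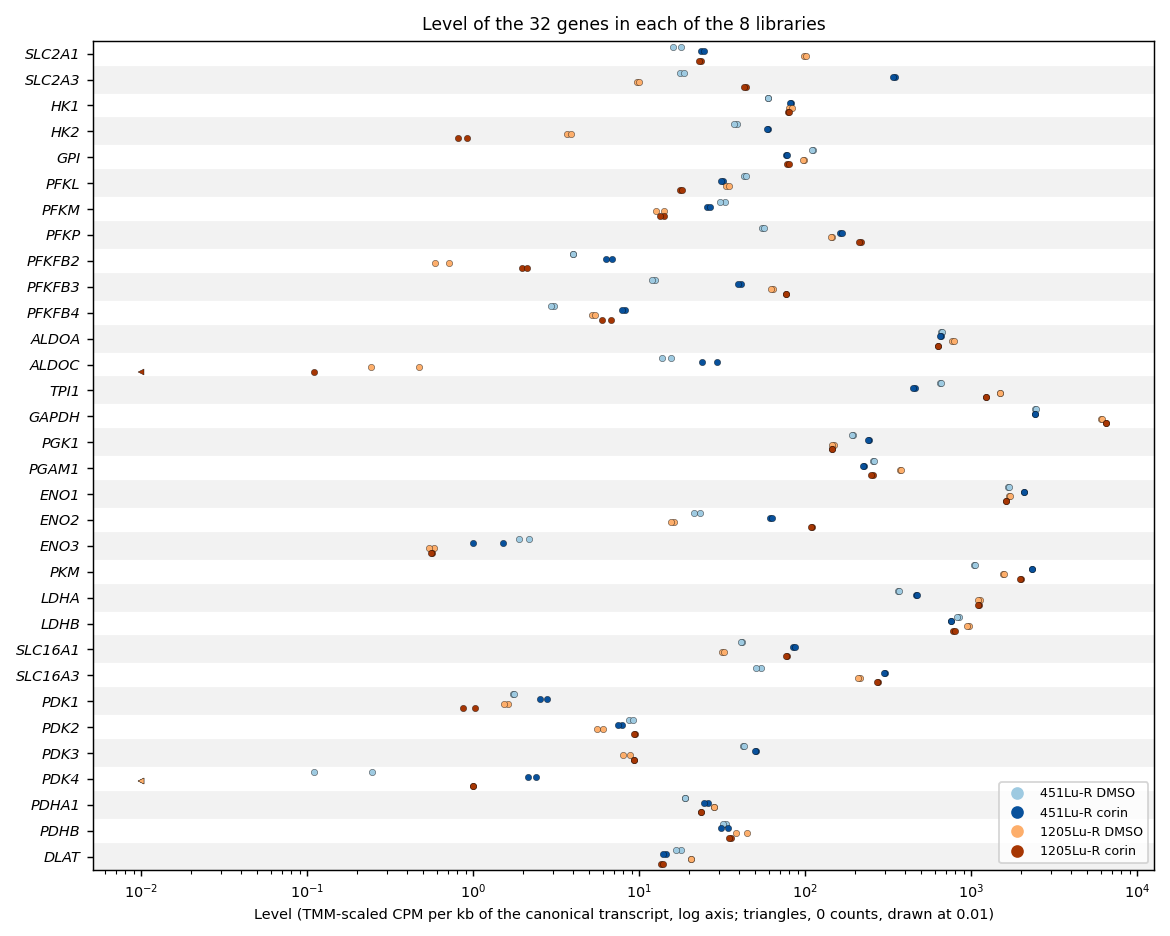
Level of each gene in each library (horizontal log axis, TMM-scaled CPM per kb of the canonical transcript; triangles mark 0 counts, drawn at 0.01), colored by cell line and treatment. The 2 libraries of a group lie close together for most genes, and *GAPDH*, *ENO1* and *PKM* lie among the highest of the pathway in every library.

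The steps from aldolase to pyruvate kinase held the most abundant transcripts, and most of them changed less than 2-fold. *ALDOA* fell by 0.28 (log2) in 1205Lu-R, and its 451Lu-R groups overlapped (adjusted p = 0.0579). *ALDOC*, the brain-type aldolase, rose from 24.9 and 22.0 to 38.5 and 46.9 CPM in 451Lu-R (1.77-fold). Only 8 and 4 counts were found in the 1205Lu-R DMSO libraries and 0 and 2 in the corin libraries, a ratio of 0.165 with an exact 95% interval from 0.0179 to 0.74 that covers counting error only. *TPI1* fell in both lines by 0.56 and 0.27 and *PGAM1* by 0.23 and 0.56 on the log2 scale. *GAPDH* was between 3122 and 3136 CPM in all 4 451Lu-R libraries (adjusted p = 0.115) and went from 7771 and 7819 to 8337 and 8331 CPM in 1205Lu-R (1.08-fold). *PGK1* rose 1.23-fold in 451Lu-R and did not pass in 1205Lu-R (adjusted p = 0.716), where its sign changed with the scaling.

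Of the enolases, the neuron-type gene stood apart. *ENO2* was at 53.1 and 48.8 CPM with DMSO and 139.5 and 144 CPM with corin in 451Lu-R. Its 1205Lu-R values were 36.8 and 35.3 CPM with DMSO and 252 and 247.5 CPM with corin. It rose 2.73-fold and 6.99-fold (adjusted p = 6.89e-16 and 1.04e-22, edgeR), a difference of 1.32 ± 0.07 (SE) on the log2 scale. *ENO1*, the ubiquitous enolase, still made up 97.1% (451Lu-R) and 93.7% (1205Lu-R) of the enolase level with corin, and the *ENO2* share rose from 1.31% to 2.88% and from 0.920% to 6.31%. By the union of exons it rose from 2.05% to 4.45% and from 1.44% to 9.56%. *ENO3*, the muscle type, had 8 to 32 counts per library, did not pass in 451Lu-R (adjusted p = 0.0536) and overlaps the far more abundant *PFN1* on the other strand. *PKM*, the pyruvate kinase of most tissues, rose from 2396 and 2408 to 5363 and 5313 CPM in 451Lu-R and from 3555 and 3647 to 4598 and 4554 CPM in 1205Lu-R, by 2.19-fold and 1.28-fold (adjusted p = 5.49e-22 and 7.22e-21, edgeR). The counts are per gene, so the splice forms of *PKM* were not separated.

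For lactate, the exporter genes moved more than the dehydrogenase genes. *SLC16A3* (MCT4, the exporter of strongly glycolytic cells) was at 141 and 130.3 CPM with DMSO and 787 and 774 CPM with corin in 451Lu-R, and at 553.5 and 536 against 717 and 704 CPM in 1205Lu-R. It rose 5.65-fold and 1.32-fold, and the responses differed by -2.14 ± 0.05 (SE, log2 scale; edgeR's interaction test, adjusted p = 2.3e-19). *SLC16A1* (MCT1, which carries lactate in either direction) went from 156.5 and 154 to 317 and 323 CPM in 451Lu-R and from 118 and 122 to 289 and 287 CPM in 1205Lu-R (2.03-fold and 2.42-fold). The *SLC16A3* share therefore rose from 55.8% to 77.9% in 451Lu-R and fell from 86.7% to 78.1% in 1205Lu-R, so that both lines had nearly the same share with corin. By the union of exons the shares were 37.5% and 62.6% in the first line and 75.7% and 62.9% in the second. *SLC16A3* overlaps *CSNK1D* on the other strand. *LDHA*, the muscle-type dehydrogenase, rose 1.26-fold in 451Lu-R, from 811 and 824 to 1042 and 1051 CPM, and its groups overlapped in 1205Lu-R (2518 and 2472 against 2478 and 2452 CPM, adjusted p = 0.748). *LDHB* fell by 0.16 and 0.26 on the log2 scale, and the *LDHA* share went from 30.5% to 38.1% and from 53.9% to 58.3%.

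At the entry of pyruvate, the kinase genes changed in line-dependent ways while *PDK4* rose in both. *PDK4*, the kinase induced by fasting, was at 0.876 and 0.393 CPM with DMSO (10 and 4 counts) and 8.54 and 7.66 CPM with corin (97 and 74 counts) in 451Lu-R, a 12.1-fold rise (log2 fold change 3.60, adjusted p = 1.78e-09, edgeR). The log2 value was 4.29 without DMSO replicate 1 and 3.17 without DMSO replicate 2. Both 1205Lu-R DMSO libraries had 0 counts and the corin libraries 35 and 41, which is at least 12.5-fold higher against a floor of 3 counts per library (adjusted p = 1.26e-08, edgeR). *PDK1*, a hypoxia-inducible kinase, went from 24.3 and 24.9 to 39.1 and 35.3 CPM in 451Lu-R and from 22.8 and 21.4 to 12.2 and 14.3 CPM in 1205Lu-R. *PDK2*, the most widely expressed kinase, went from 29.2 and 30.9 to 26.4 and 25.2 CPM in 451Lu-R and from 20.2 and 18.6 to 31.7 and 31.1 CPM in 1205Lu-R. *PDK1* and *PDK2* thus moved in opposite directions within each line and between the lines (log2 fold changes 0.58 and -0.71 for *PDK1*, -0.24 and 0.71 for *PDK2*). *SAMD14* overlaps *PDK2* on the other strand and had up to 44.1% as many counts in a library. The part of this overlap was not tested. *PDK3* was at 73.4 and 74.4 against 88.0 and 87.0 CPM in 451Lu-R and at 15.2 and 14.0 against 16.1 and 16.3 CPM in 1205Lu-R, where it did not pass (adjusted p = 0.189).

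Shares among the 4 kinases depended on the transcript length used. For *PDK3* the canonical transcript is 1741 bases long and the union of all annotated exons 17456. *PDK3* took 79.7% of the kinase level in 451Lu-R with DMSO by canonical length and 36.8% by the union. Of the complex itself, *PDHA1* (the catalytic alpha subunit) rose by 0.39 in 451Lu-R and fell by 0.25 in 1205Lu-R on the log2 scale, *DLAT* (the acetyltransferase) fell by 0.30 and 0.56, and *PDHB* did not pass in 451Lu-R (adjusted p = 0.848) and fell by 0.21 in 1205Lu-R.

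With DMSO, levels of single genes differed between the lines in both directions, in numbers close to the background. Of the 32 genes, 31 were tested, of which 16 were higher and 13 lower in 1205Lu-R, against 41.0% and 41.5% of all genes, and 7 were higher and 6 lower at least 2-fold, against 19.6% and 21.8%. *SLC2A1*, *PFKP*, *PFKFB3*, *TPI1*, *GAPDH*, *LDHA* and *SLC16A3* were the 7, between 2.27-fold and 5.83-fold higher in 1205Lu-R. *HK2* was 10.2-fold, *ALDOC* 40.6-fold, *PFKFB2* 6.17-fold, *PDK3* 5.12-fold, *ENO3* 3.60-fold and *PFKM* 2.41-fold lower in 1205Lu-R. These comparisons use the same DMSO libraries as the responses to corin. Each line is 1 sample of its kind, so the differences describe these lines.

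Summed over the 32 genes, the level was 15902 ± 22.4 CPM (SD, n = 2) with DMSO and 22256 ± 126 CPM with corin in 451Lu-R, a 1.40-fold rise. In 1205Lu-R it was 25727 ± 63.3 CPM with DMSO and 26519 ± 75.4 CPM with corin, a 1.03-fold rise. The libraries did not overlap in either line (exact permutation p = 0.333, the smallest that 2 against 2 allows). Abundant genes weigh most in this sum. In 451Lu-R, *PKM* went from a mean of 2402 to 5338 CPM and *SLC2A3* from 69.1 to 1314 CPM, while 8 genes fell. In bulk RNA, more cells with a transcript and more RNA per cell cannot be told apart.

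Regulators and other hypoxia targets were counted in the same way (edgeR, adjusted p under 0.05), beside 41.3% of all genes rising and 38.6% falling in 451Lu-R. For 1205Lu-R these shares were 40.4% and 37.8%. Of 7 regulators, 6 passed upward and 0 downward in 451Lu-R, and 5 and 1 (*HIF1AN*, log2 fold change -0.12) in 1205Lu-R. *HIF1A*, the oxygen-regulated factor subunit, went from 128.5 and 128 to 305.3 and 304 CPM in 451Lu-R, and its values in 1205Lu-R were 349 and 338 against 338 and 337 CPM (adjusted p = 0.735). *EPAS1* (HIF2A) rose by 1.39 and 1.45 on the log2 scale. *TXNIP* and *ARRDC4*, arrestin genes whose products reduce glucose uptake, rose by 2.55 and 1.53 and by 1.05 and 1.92. Of 16 hypoxia targets outside glycolysis, 14 were tested in 451Lu-R, where 12 rose and 1 fell, and 15 in 1205Lu-R, where 9 rose and 2 fell. Those that fell were *MXI1* in 451Lu-R (log2 fold change -1.41, against 1.65 in 1205Lu-R) and *VEGFA* (-1.21) and *EGLN1* (-0.40) in 1205Lu-R; with *HIF1AN*, they were named after their values were seen. *EGLN3*, an oxygen-sensing hydroxylase, rose by 4.29 and 4.10, *DDIT4*, an inhibitor of mTORC1 signaling, by 2.65 and 1.77, and *NDRG1* by 2.44 and 1.43 on the log2 scale. *ANGPTL4* had 1 count with DMSO and 26 with corin over both 451Lu-R libraries (ratio 26.7, exact 95% interval from 4.39 to 1090) and rose by 3.27 in 1205Lu-R. *CA12*, a carbonic anhydrase, was at 0 in 451Lu-R and went from 0.564 and 0.293 to 35.9 and 40.4 CPM in 1205Lu-R.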

How the data were processed

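The authors trimmed paired-end reads with Trimmomatic, ran Salmon on the GENCODE v32 transcriptome and deposited expected counts (estimated counts per gene, not normalized), 1 column per library; tool versions are not given in the sources used here. The authors' 2 tables on PLX4032 hold only log2 fold changes and adjusted p-values of their own DESeq2 comparison and were not used.

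Gene identifiers were matched to GENCODE 44 names (34052 of 34228). Counts were rounded, filtered with filterByExpr, scaled by TMM (factors from 0.962 to 1.05) and tested in edgeR 4.0.16 (R 4.3.3) with glmQLFit and glmQLFTest, 2-sided, with Benjamini-Hochberg adjustment; DESeq2 1.42.0 was an alternative. edgeR's quasi-likelihood test gives no standard error. Those shown are the absolute log2 fold change over the square root of the test's F statistic, and are approximate. The tests were checked on simulated counts. Each cell line was fitted alone, and the difference between the lines as an interaction over 8 libraries. Levels were divided by the canonical transcript length; shares and ratios (0.5 counts added) compare paralogs, and the union of exons was a length alternative chosen after seeing the data. Between replicates, the chi-square of the counts over its degrees of freedom was 1.34 to 1.40. Intervals and floors cover counting error only.

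All 32 genes could be named, with every library's value for paralogs and for genes changed at least 2-fold; of other lists, at most the 5 largest changes at least 2-fold were named. The genes and lists were drawn up with earlier results of these data known. *LDHAL6B* and *PDHA2* were not analysed here. Promoter windows came from RefSeq (GRCh38.p14).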

Additional observations from a re-analysis of the deposited data

Results flagged for a closer look

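These genes stand here because their response to corin differed between the lines by a test of the difference itself (edgeR's quasi-likelihood test of the interaction, adjusted p under 0.05 over all genes tested). Values are differences of log2 fold changes, 1205Lu-R minus 451Lu-R. At least 1 on the log2 scale, the differences were *ALDOC* -3.31, *HK2* -2.78, *SLC2A1* -2.61, *SLC16A3* -2.14, *SLC2A3* -2.12, *PFKFB3* -1.43, *PDK1* -1.33, *PFKFB4* -1.15, *ENO2* 1.32, *PDK4* 4.63. The size for *PDK4* depends on the prior count, since it had 0 counts in 1205Lu-R with DMSO, and that for *ALDOC* rests on at most 8 counts per library in 1205Lu-R. With a library left out, the *ALDOC* difference ran from -6.44 (without 1205Lu-R corin replicate 2) to -2.47 (without 1205Lu-R corin replicate 1). Smaller positive differences were *PFKFB2* 0.92, *PDK2* 0.91, *PFKM* 0.32, *TPI1* 0.26, *GPI* 0.22, *SLC16A1* 0.22, *GAPDH* 0.10. Smaller negative differences were *PFKP* -0.98, *PKM* -0.81, *PDHA1* -0.68, *HK1* -0.47, *PFKL* -0.46, *ENO1* -0.39, *LDHA* -0.37, *PGAM1* -0.37, *PGK1* -0.34, *DLAT* -0.30, *ALDOA* -0.28, *LDHB* -0.14. The difference for *LDHB* turned positive with scaling by library size alone.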

How the results depend on the processing

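Fits with DESeq2, RLE size factors, scaling by library size alone, a mean of at least 1 CPM, no filter, an adjusted p under 0.001, counts of copies added, all 8 libraries together and each library left out gave 168 counts of genes, of which 167 stayed within 1.5 times the main count. The exception was the count of genes at least 2-fold lower in 451Lu-R, between 0 and 1 with a library left out (1 without 451Lu-R corin replicate 1). Of 1690 single fold changes, 1631 kept direction and side of the threshold, 20 newly passed, 22 no longer passed and 17 changed sign. All 273 alternative changes of log2 ratios lay within the SD between replicates. Another length cancels in such a change, and leaving out 1 of 2 libraries cannot exceed that SD. Only adding the counts of copies could have moved a ratio. The change in *PFKFB4* to *PFKFB3* in 1205Lu-R, -0.0189, ran from -0.110 to 0.0727 with a library left out. The changes of sign concern small values. *PDHB* in 451Lu-R was 0.00928 in the fit of all 8 libraries and between -0.0917 and 0.0585 with a library left out (0.000471 without DMSO replicate 1, 0.0585 without corin replicate 2). In 1205Lu-R, *LDHA* was 0.00271 with DESeq2 and with RLE, 0.0733 by library size, 0.0135 at 1 CPM and between -0.0326 and 0.00257 with a library left out; *HK1* was 0.0568 by library size, *PGK1* 0.0652 by library size and 0.0053 at 1 CPM, *ENO1* 0.0248 by library size, and *PFKM* between -0.0437 and 0.129 with a library left out. Between the lines with DMSO, *ENO1* was -0.102 by library size and between -0.0172 and 0.0193 with a library left out. The difference in response was 0.0736 for *LDHB* and 0.116 for *PDK3* by library size. The log2 change of the summed level became 0.36, 0.13 and 0.57 by library size (451Lu-R, 1205Lu-R, and between the lines with DMSO). The causes were not tested. Replicate numbers did not pair the libraries (correlation of deviations -0.01 in both lines), and with a replicate block the genes that passed upward and downward numbered 20 and 8 in 451Lu-R, those of 1205Lu-R 12 and 13, and 30 differed in response. With about 10 counts or fewer per library, depth limits the size of a change. Among others, this concerns *PDK4* with DMSO and *ALDOC* in 1205Lu-R. It also concerns *ARRDC4*, *HKDC1* and *CA12* in 1205Lu-R with DMSO and *EGLN3* in 451Lu-R with DMSO.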

Other observations

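The counts of genes below stand beside 41.3% of all genes rising and 38.6% falling with corin in 451Lu-R. The same shares for 1205Lu-R were 40.4% and 37.8%. Of the 9 other genes of pyruvate entry, 8 were in the table and all 8 were tested; in 451Lu-R 3 passed upward and 3 downward, and in 1205Lu-R 5 and 2 (edgeR, adjusted p under 0.05). *MPC2*, a subunit of the mitochondrial pyruvate carrier, rose by 1.06 and 1.12 on the log2 scale. *PDP1*, the phosphatase that reactivates pyruvate dehydrogenase, rose by 1.79 and 0.43. *PC*, which carboxylates pyruvate to oxaloacetate, fell by 0.32 in 451Lu-R and rose by 1.80 in 1205Lu-R.

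Of 31 other sugar transporters and glycolytic paralogs, 15 were tested in 451Lu-R, where 9 rose and 3 fell, and 12 in 1205Lu-R, where 6 rose and 4 fell. *SLC2A12*, a glucose transporter, went from 3.86 and 3.54 to 17.1 and 21.8 CPM in 451Lu-R and from 3 to 102 counts over both libraries in 1205Lu-R (ratio 33.6, exact 95% interval from 11.2 to 166). *HKDC1*, a hexokinase-like gene, fell by 0.89 in 451Lu-R and rose by 2.61 in 1205Lu-R. *GAPDHS* fell from 56.2 and 53.4 to 9.68 and 9.94 CPM in 451Lu-R and was at 0 in 1205Lu-R. *LDHD*, a D-lactate dehydrogenase, went from 0.175 and 0.295 to 6.07 and 6.93 CPM in 451Lu-R, and *SLC2A4* from 0.438 and 0.767 to 2.48 and 2.74 CPM.

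Of 10 genes of gluconeogenesis and glycogen, 4 rose and 4 fell among 8 tested in 451Lu-R, and 3 rose and 3 fell among 7 tested in 1205Lu-R. *GYS1*, the glycogen synthase, fell by 1.46 and 1.29 and *PYGL*, a glycogen phosphorylase, rose by 1.15 and 1.86 on the log2 scale. *PYGB*, the brain-type phosphorylase, rose by 1.12 in 451Lu-R and fell by 0.90 in 1205Lu-R. *PCK1* had 0 counts with DMSO and 59 with corin over both 451Lu-R libraries, at least 10.0-fold higher against a floor of 3 counts per library. *PGLS*, an enzyme of the pentose phosphate pathway, fell by 0.75 and 1.11 on the log2 scale.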
